A study of Mus musculus with 23 samples.

Results

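The quadriceps of corticosterone-treated male mice was compared with that of corticosterone-treated female mice for autosomal genes, that is, genes outside the X and Y chromosomes. Of the 23 mice sequenced, the 11 with a corticosterone pellet were taken, the males M2, M4, M6, M8, M10 and M12 and the females F2, F4, F6, F8 and F10, and the 12 vehicle-treated mice (6 males and 6 females) served as background for the same contrast of the sexes. All were C57Bl6 mice for which no transgene or deleted allele is named, 8 to 10 weeks old, that differed by sex and by the pellet placed under the skin. Corticosterone-treated mice carried 50 mg corticosterone with 50 mg cholesterol for 14 days, vehicle-treated mice carried cholesterol without the hormone, and all were fasted for 5 h before the muscle was taken. RNA of the whole muscle was sequenced, so fibers, vessels, nerve, fat and resident immune cells were measured together. Of 13049 genes tested, 12613 were autosomal, and the comparison rests on these.

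Corticosterone is the main glucocorticoid of mice and acts through the glucocorticoid receptor, a hormone-bound transcription factor. In skeletal muscle, prolonged glucocorticoid excess is known to raise the ubiquitin ligases MuRF1 and atrogin-1, which mark muscle proteins for the proteasome, to restrain protein synthesis, and to affect fast glycolytic fibers more than slow fibers. Glucocorticoids also restrain collagen synthesis and the expression of inflammatory genes in many tissues and alter fat storage.

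Counts on genes ranged from 20904845 to 21984477 in the treated mice, so depth differed little. The libraries matched their labelled sexes and were dominated by muscle transcripts, with sums over 10 fiber markers of 131864, 166586, 98425, 126083 and 72657 CPM (a gene's counts relative to the library size, scaled by TMM, trimmed mean of M values) in the females and 126985 to 211196 (median 151415) CPM in the males. Here and below, values of the 5 treated females are given in the order F2, F4, F6, F8, F10, and those of the 6 treated males by their lowest, highest and median. Some libraries stood apart. The 24 hepatocyte markers summed to 3668 CPM in F6, 4380 in F10, 3916 in M8 and 2348 in M12, against 95.8 to 981 in the other treated mice, and Alb (albumin) reached 1872 CPM in F10. The most Xist counts in a male (91) were in M8 and the most Y-chromosome counts in a female (21) in F10. The main counts of calls are therefore also given without F10 and M8. Whether males and females were processed together is not stated, so sex and any batch of the sexes cannot be told apart, and all differences below are between these groups of mice. The labels do not say whether mice shared a cage or litter.

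With corticosterone, males and females differed in 2946 autosomal genes at an adjusted p under 0.01 (23.4% of those tested, quasi-likelihood test of edgeR, adjusted by Benjamini-Hochberg). Males were higher in 1196 genes (9.48%) and females in 1750 (13.9%). The female-high differences were larger, with a median log2 fold change (log2FC, males against females throughout, so negative where females were higher) of -0.986, against 0.48 for the male-high genes. Beyond a log2FC of 1 in size there were 967 genes (7.67%), 109 higher in males (0.864%) and 858 higher in females (6.80%). Over all autosomal genes the median log2FC was -0.03. The share of male-high genes was largest among abundant genes and that of female-high genes among scarce genes. Among the top expression tertile (mean above 26.9 CPM) 19.6% were male-high and 8.18% female-high, among the middle tertile 6.57% and 14.9%, and among the bottom tertile (up to 6.98 CPM) 2.26% and 18.6%.

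**Figure D1:**
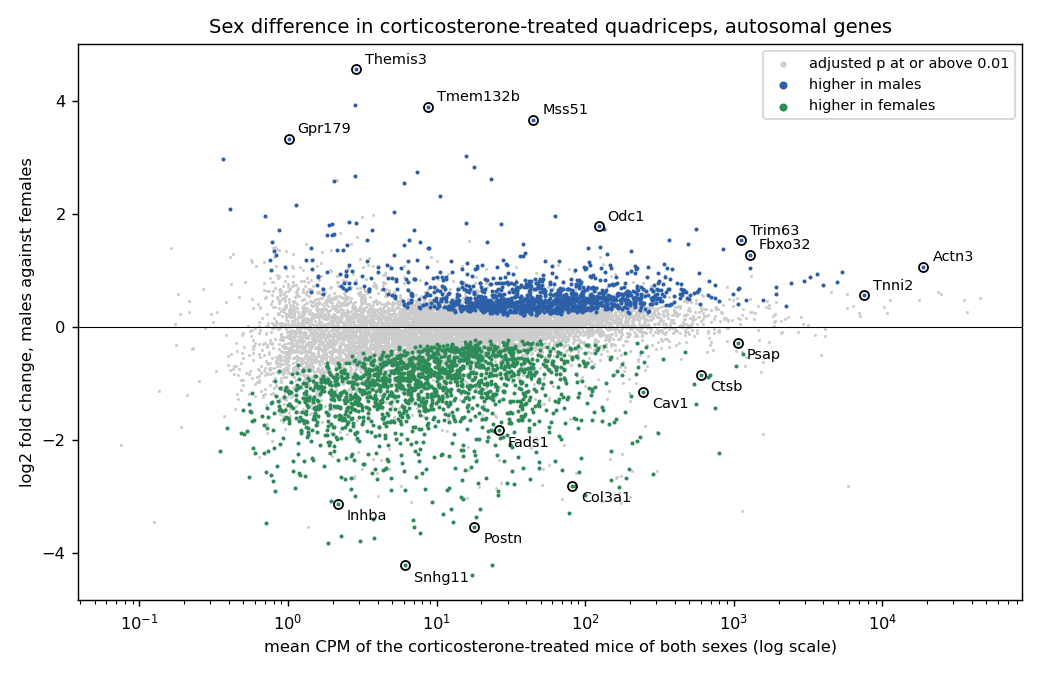
Each point is an autosomal gene of the corticosterone-treated mice. A log axis gives the average of its female mean CPM and its male mean CPM, and the other axis the log2FC of males against females. Blue genes (1196) were higher in males and green genes (1750) higher in females at an adjusted p under 0.01, and the labelled changes run from 4.55 (Themis3) to -4.21 (Snhg11).

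Values of all 6 males lay above those of all 5 females for 880 genes (6.98%) and below for 686 (5.44%). Among called genes, the sexes did not overlap in 761 of the male-high genes (63.6%) but in 598 of the female-high genes (34.2%). The treated females varied more among themselves. The SD of the female-high genes was 33.9% of the mean in females and 18.8% in males (median over genes), and over all genes 19.1% and 14.2%. F8 was nearest the males. Its female-high genes lay at a median of 0.223 (log2) above the male mean, against 0.699 in F2, 0.522 in F4, 1.101 in F6 and 1.028 in F10. For the male-high genes the 5 females were closer together, from -0.374 in F8 to -0.672 in F10. The number of calls therefore rested in part on single mice, with 1804 genes without F10, 1941 without F6 and 3623 without F8, and 1333 without F10 and M8 (630 male-high, 703 female-high). A fit on the 11 treated mice alone, which does not draw on the spread of the vehicle-treated mice, called 1301 genes (546 and 755).

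Of the male-high genes without overlap, those with the largest log2FC were Themis3, Tmem132b, Mss51, Gpr179, Tfcp2l1, Ly6g6d, Slc30a2 and Glra3. Mss51 (ENSMUSG00000021815, chromosome 14, 20482867 to 20496901, minus strand) encodes a zinc-finger protein of skeletal muscle linked to mitochondrial metabolism. It had 3.54, 6.06, 5.48, 7.66 and 9.95 CPM in the females, and 21.5 to 139 (median 82.96) CPM in the males. Every male was above every female, but the males themselves spread widely (log2FC 3.67 ± 0.93 (SE), adjusted p = 0.00414), and the call was lost when F2 or F6 was left out (adjusted p up to 0.0127). Tfcp2l1, a transcription factor of the grainyhead family, had 5.17, 0.961, 4.35, 3.63 and 2.97 CPM in the females and 18.9 to 40.2 (median 26.9) in the males (log2FC 3.02 ± 0.30 (SE), adjusted p = 1.66e-06). Slc30a2, a zinc exporter, had 2.68, 10.4, 2.74, 4.22 and 2.02 CPM in females and 15.4 to 55.3 (median 28.5) in males (2.83 ± 0.44 (SE), adjusted p = 0.000123), with F4 well above the other females. Glra3, a glycine receptor subunit, had 3.09, 0.673, 3.23, 1.28 and 1.27 and 4.54 to 21.3 (median 11.7) CPM (2.74 ± 0.45 (SE), adjusted p = 0.000381). Tmem132b, a transmembrane protein, had 0.198 to 2.09 CPM in the females and 3.08 to 34.7 (median 10.8) in the males (3.89 ± 0.67 (SE), adjusted p = 0.000274). Themis3 (females 0.144 to 0.318, males 1.85 to 11.2 (median 4.93) CPM) and the orphan receptor Gpr179 (females 0 to 0.323, males 0.647 to 2.92 (median 1.8) CPM) were so low in females that their fold changes rest on few counts. Ly6g6d was at 0 to 0.161 CPM in the treated females, where 3 counts are worth 0.119 to 0.147 CPM and 3 of the 5 were below that, and at 0.231 to 0.925 (median 0.653) CPM in males, and no fold is given. Of these 8, Themis3, Tmem132b, Tfcp2l1, Ly6g6d and Slc30a2 were also higher in vehicle-treated males than in vehicle-treated females.

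Actn3 (alpha-actinin-3, a Z-disc protein of fast fibers) and Tnni2 (fast troponin I) were, with Des (desmin) and Pde4dip (myomegalin), the 4 most abundant male-high genes without overlap. Actn3 had 16620, 12703, 12871, 13265 and 5696 CPM in the females and 18800 to 33933 (median 25540.5) in the males (log2FC 1.06 ± 0.23 (SE), adjusted p = 0.00128). Tnni2 had 7265, 6862, 4646, 7490 and 4082 and 7714 to 10736 (median 8556) CPM (0.56 ± 0.15 (SE), adjusted p = 0.00525). F6 and F10 were the lowest mice for Tnni2, whose call was lost when F6, F10, M2, M4 or M6 was left out (adjusted p up to 0.0169). Des, which links myofibrils, had 4476, 3017, 3382, 4759 and 2474 and 5853 to 8046 (median 7130.1) CPM (0.97 ± 0.15 (SE), adjusted p = 0.000115), and Pde4dip had 4312, 3662, 3644, 4015 and 2451 and 5479.9 to 7790.1 (median 5977) CPM (0.79 ± 0.15 (SE), adjusted p = 0.00052). Of 15 fast fiber contractile genes, 4 were higher in males (Actn3, Mylk2, Mylk4 and Tnni2), none was higher in females, and the median log2FC was 0.48. The 4 are 26.7% of the list, against 23.4% of all genes in either direction and 9.48% male-high. With a score of adipocyte markers as a covariate or in the treated mice alone, 2 were called. Mylk4, a myosin light chain kinase family member, differed most of these, with 296, 332, 274, 228 and 160.3 CPM in females and 388 to 1433 (median 884) in males (1.73 ± 0.29 (SE), adjusted p = 0.000207). The main fast myosin of mouse quadriceps, Myh4, did not pass (0.48 ± 0.28 (SE), adjusted p = 0.179, females 13196 to 51744, males 24667 to 57693 (median 36570) CPM). None of 15 slow and type 2A fiber genes passed by edgeR, DESeq2 or limma-voom (0 at an unadjusted p under 0.05 by edgeR), although all 15 had a negative log2FC (median -0.86). Their summed level ran from 1920 CPM in F6 to 11267 in F8 among females and 1182 to 6731 (median 3192) among males, so both sexes held high and low mice.

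Genes of muscle protein breakdown, to which the study gave much room, were higher in treated males for both muscle ligases. Trim63 (ENSMUSG00000028834, chromosome 4, 134315120 to 134329629, plus strand), the ubiquitin ligase MuRF1, had 1059, 568, 639, 379.8 and 247 CPM in the females and 886 to 2269.8 (median 1782) CPM in the males. F2 overlapped with the lowest male, and the mean was 2.89 times higher in males (log2FC 1.53 ± 0.32 (SE), adjusted p = 0.00111). The Trim63 call was lost in the fit on the 11 treated mice alone (adjusted p = 0.011). Fbxo32 (ENSMUSG00000022358, chromosome 15, 58175879 to 58214932, minus strand), which encodes atrogin-1, had 1075, 1075, 897, 377 and 317 CPM in the females and 1268 to 2618 (median 1772) in the males, without overlap (2.42 times, log2FC 1.28 ± 0.35 (SE), adjusted p = 0.00693). F8 and F10 were far below the other females, and the Fbxo32 call was lost when F6, F8, F10, M4, M6 or M8 was left out (adjusted p up to 0.0196). Against vehicle-treated mice of their own sex, Trim63 changed by 1.97 ± 0.31 (SE), adjusted p = 3.53e-05 in males and 0.43 ± 0.31 (SE), adjusted p = 0.321 in females, and Fbxo32 by 1.57 ± 0.33 (SE), adjusted p = 0.000789 and 0.74 ± 0.34 (SE), adjusted p = 0.11. The difference between the 2 responses did not pass for either gene (interaction 1.54 ± 0.43 (SE), adjusted p = 0.0279 and 0.83 ± 0.47 (SE), adjusted p = 0.231).

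**Figure D2:**
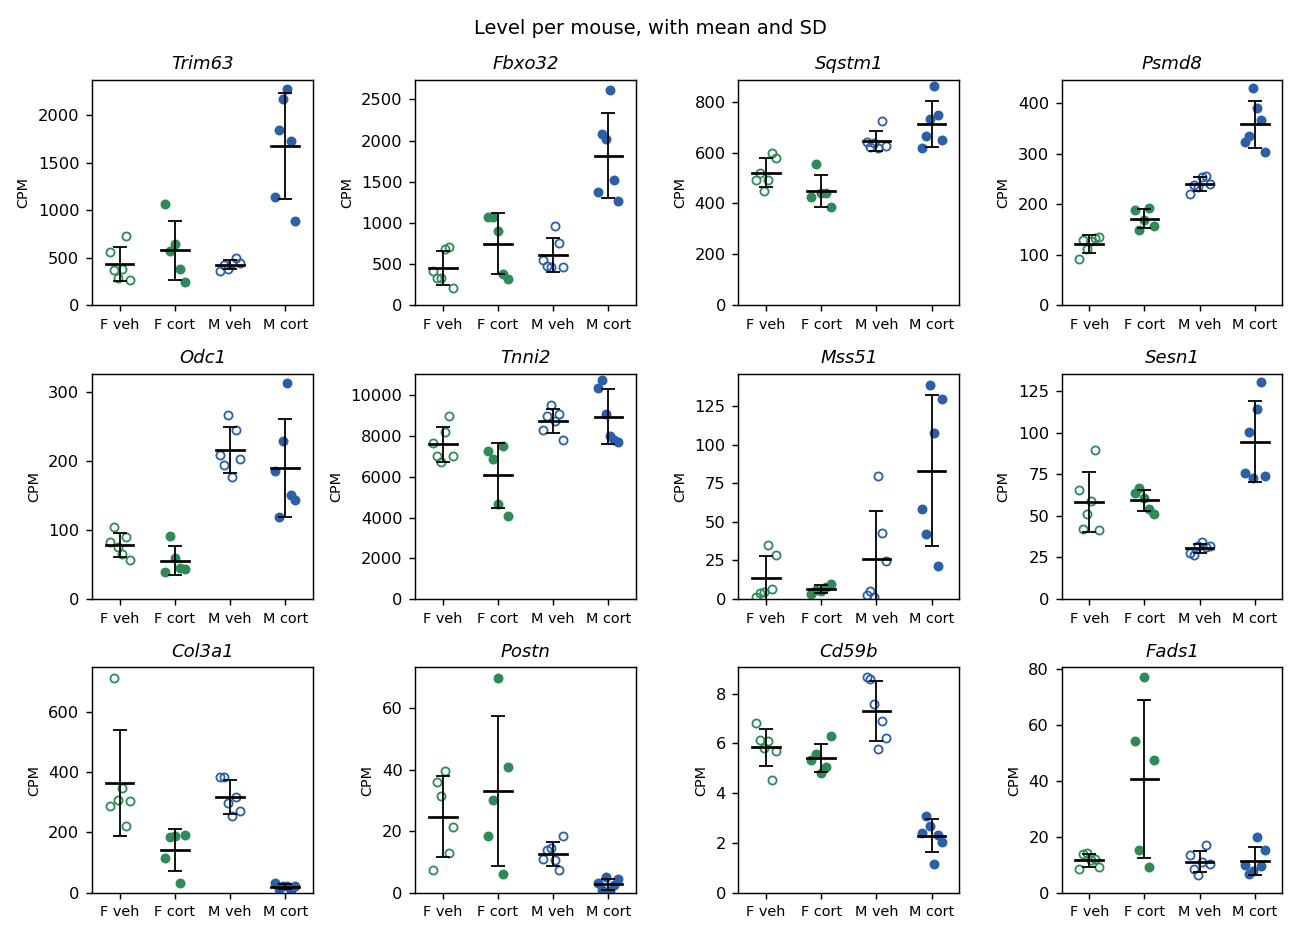
CPM of 12 named genes in each mouse, females in green and males in blue, vehicle-treated as open and corticosterone-treated as filled points, with the mean and SD of each group in black. The treated males were above the treated females in Fbxo32, Sqstm1, Psmd8, Odc1, Tnni2, Mss51 and Sesn1 and below them in Col3a1, Postn and Cd59b in every mouse, while Trim63 and Fads1 overlapped.

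Of 32 ubiquitin ligase and other atrophy genes, 9 were higher in treated males, none in females, and 23 did not pass (median log2FC 0.34, vehicle -0.04). The share called was 28.1%, against 23.4% of all genes in either direction and 9.48% male-high. Beside Trim63 and Fbxo32 the 9 were the ligase components Asb2, Fbxo31 and Mul1, the translation inhibitor Eif4ebp1, and the autophagy genes Sqstm1, Map1lc3a and Map1lc3b. Sqstm1 (p62, which delivers ubiquitinated cargo to autophagosomes) had 426, 553, 441, 439 and 385 CPM in females and 617 to 862 (median 699) in males (0.66 ± 0.10 (SE), adjusted p = 0.000121), and Map1lc3b, a structural protein of autophagosomes, had 270.3, 249, 239, 257 and 210.5 and 285 to 453 (median 341) CPM (0.51 ± 0.11 (SE), adjusted p = 0.00112). The sexes did not overlap in either gene. The transcription factors Foxo1 and Foxo3, which drive atrophy genes, fell just outside the threshold. Foxo3 had 62.4, 49.6, 64.1, 48.1 and 42.8 and 56.5 to 87.8 (median 72.1) CPM (0.43 ± 0.13 (SE), adjusted p = 0.0101), and Foxo1 87.3, 20.7, 101, 62.2 and 53.6 and 97.7 to 119 (median 104) CPM (0.71 ± 0.23 (SE), adjusted p = 0.0177), with F4 far below the other mice. The mitophagy receptor Bnip3 (0.20 ± 0.13 (SE), adjusted p = 0.216), the ligase Ube4b (-0.12 ± 0.09 (SE), adjusted p = 0.304) and the proteasomal deubiquitinase Usp14 (-0.01 ± 0.08 (SE), adjusted p = 0.903) did not pass. The count of 9 was 4 without F10 and M8, 4 with the adipocyte score as a covariate, 2 in the treated mice alone, and 6 to 11 with single mice left out (lowest without F10 or M4).

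The proteasome degrades the proteins that these ligases mark. Of 35 subunits 13 were higher in treated males and none in females, with a median log2FC of 0.24. They were mostly subunits of the regulatory cap (Adrm1, Psmc1, Psmc3, Psmc5, Psmd1, Psmd2, Psmd3, Psmd4, Psmd7, Psmd8 and Psmd12), with the core subunit Psma7 and the activator Psme4. The summed level of the 35 subunits separated the sexes, with 3758, 4052, 3361, 4062 and 3240 CPM in the females and 4232 to 5449 (median 4753) CPM in the males. With vehicle the sums were 3812 to 4838 (median 4207) CPM in females and 4307 to 4769 (median 4605) in males. Against vehicle-treated mice of their own sex, the subunits had a median log2FC of -0.019 in males and -0.235 in females. Psmd8 had 189.7, 149, 169.5, 193 and 157 CPM in females and 304 to 430.1 (median 352) in males (1.06 ± 0.11 (SE), adjusted p = 1.82e-06). It differed as much without the hormone (vehicle 0.99 ± 0.10 (SE), adjusted p = 1.89e-06). Psmd4, a ubiquitin receptor of the cap, did so with corticosterone (0.70 ± 0.11 (SE), adjusted p = 0.00016) and not with vehicle (0.08 ± 0.11 (SE), adjusted p = 0.821), and the interaction was 0.62 ± 0.15 (SE), adjusted p = 0.0192. The 13 are 37.1% of the subunits, against 9.48% male-high of all genes. The count was 7 without F10 and M8, 6 in the treated mice alone, 4 with the adipocyte score as a covariate, and 9 to 15 with single mice left out.

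Of 13 genes of polyamine metabolism, 6 were higher in treated males and 2 in females (61.5% called, against 23.4% of all genes). Without F10 and M8, 4 and 0 were called (6 and 2 at an unadjusted p under 0.05, edgeR), as in the fit on the 11 treated mice alone, and with the adipocyte score as a covariate 2 and 0 (7 and 2). Odc1 (ENSMUSG00000011179, chromosome 12, 17544794 to 17551505, plus strand) encodes ornithine decarboxylase, which starts polyamine synthesis. It had 39.8, 90.8, 59.8, 44.3 and 42.9 CPM in the females and 119.5 to 313 (median 168) in the males, 3.43 times more on average (log2FC 1.78 ± 0.24 (SE), adjusted p = 4.6e-05). Amd1, which supplies aminopropyl groups for spermidine and spermine, had 120.3, 132, 106, 135 and 78.6 and 179.5 to 554 (median 259) CPM (1.34 ± 0.26 (SE), adjusted p = 0.000572). Smox, which oxidizes spermine, had 73.998, 114, 69.03, 57.4 and 26.5 and 71.6 to 371 (median 169.8) CPM (1.42 ± 0.38 (SE), adjusted p = 0.00575), with overlap between the sexes. Odc1, Amd1 and Smox were male-high with vehicle too (Odc1 1.45 ± 0.23 (SE), adjusted p = 0.000484, Amd1 2.80 ± 0.25 (SE), adjusted p = 2.66e-07, Smox 2.05 ± 0.36 (SE), adjusted p = 0.00182). The antizymes Oaz1 and Oaz2, which restrain Odc1, were also higher in males, as was Dhps, which modifies eIF5A with spermidine. Azin1, which counteracts antizyme, and Paox, which oxidizes acetylated polyamines, were higher in females. Paox had 9.12, 5.38, 12.4, 3.73 and 8.45 and 2.73 to 4.36 (median 3.85) CPM (-1.07 ± 0.23 (SE), adjusted p = 0.00123).

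In insulin, IGF and mTOR signalling, 5 of 29 genes were higher in treated males (Eif4ebp1, Mtor, Sesn1, Tsc1 and Tsc2) and 2 in females (Igf1 and Inhba), and the 7 are 24.1% of the list, near the 23.4% of all genes. Sesn1 (ENSMUSG00000038332, chromosome 10, 41809935 to 41908424, plus strand), a sestrin that restrains mTORC1, had 63.6, 66.9, 60.5, 54.1 and 51.2 CPM in females and 72.9 to 130.3 (median 88.1) in males (0.68 ± 0.18 (SE), adjusted p = 0.00531). Its call was lost when F6, F8, F10, M4, M8 or M10 was left out (adjusted p up to 0.015). Tsc2 (tuberin, another brake on mTORC1) had 90.8, 94.6, 90.3, 89.1 and 69.8 and 111 to 142 (median 129) CPM (0.56 ± 0.08 (SE), adjusted p = 8.32e-05). Mtor itself differed little in size (0.32 ± 0.07 (SE), adjusted p = 0.00143). Igf1, the growth factor, was higher in females at 30.1, 25.3, 43.99, 6.19 and 47.9 CPM against 4.91 to 18.5 (median 9.64) in males (-1.62 ± 0.36 (SE), adjusted p = 0.00172), although F8 lay among the males. The Igf1 call was lost in the treated mice alone, with the adipocyte score and with a block on the mouse numbers (adjusted p up to 0.0742). The count of female-high genes here was 1 without F10 and 4 without F8, and without F10 and M8 the list held 3 male-high and 1 female-high.

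Receptors and direct targets of the hormone gave few calls between the sexes. The glucocorticoid receptor Nr3c1 had 64.7, 81.03, 71.7, 54.1 and 63.8 CPM in the females and 69.8 to 85.9 (median 75.6) in the males (0.20 ± 0.13 (SE), adjusted p = 0.243). The mineralocorticoid receptor Nr3c2 (-0.32 ± 0.12 (SE), adjusted p = 0.0384) and the estrogen receptor Esr1 (-0.43 ± 0.13 (SE), adjusted p = 0.0135) had negative log2FC and did not pass. Of 17 steroid receptor, cofactor and steroid enzyme genes, 2 were higher in females, Hsd17b12 and Srd5a3 (5 without F4, 1 without F6 or F10, and 0 without F10 and M8, with 5 at an unadjusted p under 0.05 by edgeR). Of all autosomal genes tested, 13.9% were female-high. Of 23 glucocorticoid receptor target genes, 19 had a positive log2FC (median 0.35), but only Klf9 and Sesn1 passed as male-high and Angptl4 as female-high. The 3 are 13% of the list, against 23.4% of all genes. At an unadjusted p under 0.05 by edgeR, 11 of the 23 were male-high and 1 female-high. DESeq2 called 4 and 1, and limma-voom 1 and 1. Fkbp5, a cochaperone of the receptor, had 277, 207, 269, 201 and 148 and 292 to 421 (median 365) CPM. All males were above all females, but the test missed the threshold (0.71 ± 0.29 (SE), adjusted p = 0.0581). Sgk1, a kinase (0.92 ± 0.36 (SE), adjusted p = 0.0457), Zbtb16 (0.56 ± 0.24 (SE), adjusted p = 0.0716), Per1 (0.69 ± 0.32 (SE), adjusted p = 0.0863) and Klf15 (0.27 ± 0.14 (SE), adjusted p = 0.128), which regulates amino acid breakdown, did not pass either. F4 was lowest of the females for Sgk1 (337, 68.6, 223, 356 and 209 CPM), Per1 (51.8, 18.6, 71.2, 48.9 and 40.4 CPM) and Zbtb16 (149, 53.01, 129, 129 and 93.4 CPM), below all males in each. For Sgk1 every female was below every male (males 391 to 563 CPM). Klf9, a transcription factor, had 217, 207, 204, 222 and 178 and 243 to 317 (median 275) CPM without overlap (0.43 ± 0.11 (SE), adjusted p = 0.00404), and its call was lost when F10 or M12 was left out (adjusted p up to 0.0114). With F10 left out, or F10 and M8, neither Klf9 nor Sesn1 passed. Angptl4, which inhibits lipoprotein lipase, had 115, 89.7, 167, 45.9 and 138 CPM in females and 21.8 to 45.9 (median 34.1) in males (-1.70 ± 0.35 (SE), adjusted p = 0.000893), F8 lying at the top of the male range.

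Of 19 clock genes 4 were higher in treated males (among them Bhlhe41, Cry2 and Rora) and none in females, with a median log2FC of 0.27. The 4 are 21.1% of the list, against 23.4% of all genes in either direction and 9.48% male-high. Cry2, a repressor of the clock, had 42.8, 44.5, 53.1, 31.2 and 32.2 and 56.6 to 106 (median 78.5) CPM (0.95 ± 0.16 (SE), adjusted p = 0.000188). The sexes did not overlap in Cry2. Of 71 cytosolic ribosomal protein genes, 65 had a positive log2FC of small size (median 0.16), 3 passed as male-high (Rpl4, Rpl7a and Rps14) and 1 as female-high (Rpl3), a share of 5.63% against 23.4% of all genes. The male-high count was 8 without F8 and 1 without F6, F10 or M4 or without F10 and M8, and Rpl3 was lost when F2, F6, F10, M2, M4, M6, M8 or M12 was left out (adjusted p up to 0.0464).

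Extracellular matrix genes were higher in treated females. The largest female-high changes without overlap were in Snhg11, known as a long noncoding RNA, Postn (periostin), Inhba (the activin A subunit), Pi15 (a peptidase inhibitor), the collagens Col3a1 and Col14a1, Scg3 (a secretogranin) and Ephb2 (an ephrin receptor). The annotation used here lists Snhg11 as protein-coding, and it is counted so below. Col3a1 (ENSMUSG00000026043, chromosome 1, 45311538 to 45349706, plus strand), the main chain of type III collagen, had 115, 185, 189.5, 33.2 and 193 CPM in the females and 10.3 to 31.5 (median 21.8) in the males. Even F8 was above every male, and the mean was 7.01 times higher in females (log2FC -2.81 ± 0.37 (SE), adjusted p = 3.51e-05). Postn, a matrix protein of fibroblasts, had 18.3, 29.99, 69.8, 6.04 and 40.8 and 0.748 to 5.19 (median 2.81) CPM (-3.53 ± 0.55 (SE), adjusted p = 0.000124). Col14a1 had 7.99, 15.5, 11.5, 6.92 and 20.9 and 1.16 to 2.99 (median 1.79) CPM (-2.64 ± 0.42 (SE), adjusted p = 0.000148). Snhg11 had 11.4, 5.58, 24.4, 3.14 and 13.4 and 0.189 to 0.881 (median 0.671) CPM (-4.21 ± 0.73 (SE), adjusted p = 0.000282). Inhba had 1.63, 0.721, 1.25, 1.82 and 13.998 and 0.15 to 0.601 (median 0.48) CPM (-3.13 ± 0.71 (SE), adjusted p = 0.0018). F10 was far above the other females, and the call was lost when F10 was left out (adjusted p up to 0.03). Ephb2 had 2.09, 1.2, 3.67, 0.638 and 3.53 and 0.2 to 0.592 (median 0.294) CPM (-2.63 ± 0.51 (SE), adjusted p = 0.000618). Pi15 (females 0.589 to 2.5, males 0.0924 to 0.43 (median 0.163) CPM) and Scg3 (females 0.393 to 2.18, males 0.0881 to 0.215 (median 0.15) CPM) were near the worth of 3 counts in males, and their fold changes rest on few counts.

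Of 38 collagen and other matrix genes, 28 were higher in treated females and 1, Lama2 (the laminin chain of the fiber basement membrane, 0.50 ± 0.13 (SE), adjusted p = 0.00578), was higher in males, a call that was lost when F2, F8, F10, M2, M4 or M6 was left out (adjusted p up to 0.0156). In all, 76.3% of the list was called, against 23.4% of all genes (13.9% female-high). The median log2FC was -1.35, against -0.07 with vehicle. The 28 included the fibrillar collagens Col1a1, Col1a2, Col5a1 and Col5a2, the type IV and VI collagens, the basement membrane nidogens, and enzymes of collagen maturation (P4ha1, Plod1, Lox and Loxl1). Col1a1 had 67.8, 139, 92.7, 29.6 and 86.2 CPM in females and 10.7 to 21.3 (median 14.1) in males (-2.49 ± 0.36 (SE), adjusted p = 7.25e-05). Lum (lumican) had 16.7, 30.3, 22.3, 18.6 and 32.1 and 6.87 to 9.84 (median 8.96) CPM (-1.48 ± 0.18 (SE), adjusted p = 1.41e-05). The summed level was 3519, 3423, 5026, 2039 and 4179 CPM in the females and 1444 to 1911 (median 1767) in the males, so that F8 was close to the males but above them. Against vehicle-treated mice of the same sex, Col3a1 changed by -3.96 ± 0.38 (SE), adjusted p = 1.16e-07 in males and -1.34 ± 0.36 (SE), adjusted p = 0.00914 in females, and Col1a1 by -3.26 ± 0.36 (SE), adjusted p = 7.26e-07 and -1.08 ± 0.35 (SE), adjusted p = 0.0279. The difference between these responses passed for Col3a1 (-2.61 ± 0.49 (SE), adjusted p = 0.00781) but not for Col1a1 (-2.18 ± 0.48 (SE), adjusted p = 0.0139). The count of female-high matrix genes was 19 without F10 and M8 and 16 with the adipocyte score as a covariate.

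Fibroblast markers, of which Col1a1, Col3a1, Dcn and Lum are also on the matrix list, moved with the matrix genes. Of 12, 11 were higher in females (91.7%, against 13.9% female-high of all genes, median log2FC -1.37). The sum of the 12 was 948, 1391, 1161, 750 and 1372 CPM in females and 464 to 667 (median 598) in males, without overlap. Pdgfra, the receptor that defines interstitial fibroblasts, had 33.5, 45.1, 35.2, 27.8 and 34.1 and 19.7 to 25.8 (median 24.7) CPM (-0.56 ± 0.13 (SE), adjusted p = 0.00261). In whole muscle, fewer cells of a type and less RNA per cell cannot be told apart, and the part of fibroblast number in the matrix genes was not tested.

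Of 35 antigen presentation and interferon response genes, 30 were higher in treated females and none in males (85.7%, against 13.9% female-high of all genes). The median log2FC of the list was -1.36 (vehicle -0.02). The 30 included MHC class I and its loading machinery (H2-K1, H2-D1, B2m, Tap1, Tap2 and the immunoproteasome subunits Psmb8, Psmb9 and Psmb10), MHC class II (H2-Aa, H2-Ab1, H2-Eb1, H2-DMb1 and Cd74), the interferon signalling factors Stat2, Irf1, Irf7 and Irf9, and interferon-induced effectors (Isg15, Ifit1, Ifit2, Ifit3, Oas2, Bst2, Gbp2, Gbp3, Ifi27, Ifitm3 and Xaf1). Irf9, the DNA-binding subunit of the interferon-stimulated factor ISGF3, had 13.3, 17.7, 13.7, 9.18 and 15.3 CPM in the females and 6.06 to 8.15 (median 6.58) in the males (-1.002 ± 0.15 (SE), adjusted p = 8.19e-05), without overlap. B2m, the light chain of MHC class I, had 433, 179.8, 591, 78.95 and 507 and 63.9 to 129 (median 79.6) CPM (-2.02 ± 0.35 (SE), adjusted p = 0.000284). F8 lay within the male range for B2m, and the sum of the list was 1578, 1047, 2117, 420 and 1917 CPM in females and 340 to 628 (median 431) in males.

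Isg15, a ubiquitin-like modifier, had 6.99, 12.6, 5.77, 2.36 and 10.03 and 1.49 to 3.74 (median 2.21) CPM (-1.67 ± 0.36 (SE), adjusted p = 0.00127), and Ifit1, which binds foreign RNA, 6.22, 18.6, 6.77, 3.19 and 12.2 and 1.99 to 5.55 (median 2.95) CPM (-1.55 ± 0.35 (SE), adjusted p = 0.00199). Here F4 was highest, not F6 or F10. The MHC class II chains H2-Aa (0.544, 6.2, 8.39, 1.18 and 4.76 and 0.379 to 2.08 (median 1.23) CPM, -1.76 ± 0.50 (SE), adjusted p = 0.00844) and H2-Eb1 (0.318, 2.74, 4.84, 0.786 and 2.58 and 0.142 to 1.25 (median 0.495) CPM, -1.82 ± 0.50 (SE), adjusted p = 0.00662) were high in F4, F6 and F10, while F2 and F8 lay among the males. Against vehicle-treated mice of their own sex, H2-Eb1 was lower with corticosterone in both (log2FC -5.21 ± 0.48 (SE), adjusted p = 8.27e-08 in males and -3.30 ± 0.45 (SE), adjusted p = 3.87e-05 in females). The count of 30 was 21 without F10 and M8, 20 without F10 or without M4, 8 with the adipocyte score as a covariate and 10 with a block on the mouse numbers.

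Promoters of 23 of the 30 female-high genes of this list were at hand (RefSeq, GRCm38.p6, from 250 bases before to 50 after the start site). They were searched on both strands for GAAA followed after any 2 bases by GAAA, the core of the interferon-stimulated response element bound by ISGF3, and for CTGATTGG, the Y box of MHC promoters. The windows below are shown because the members just named carry these letters, in capitals, which in Ifit1 are those of the other strand, TTTC, 2 bases and TTTC. In Isg15, 3 overlapping matches begin at -78, -72 and -66 from the start site, and in Ifit1 2 matches begin at -104 and -85. The Y box begins at -51 in H2-Aa and -62 in H2-Eb1.
Isg15, chr4:156200835-156200936, minus strand: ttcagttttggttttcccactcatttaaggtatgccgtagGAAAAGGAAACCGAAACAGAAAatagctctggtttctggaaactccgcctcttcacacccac
Ifit1, chr19:34640745-34640853, plus strand: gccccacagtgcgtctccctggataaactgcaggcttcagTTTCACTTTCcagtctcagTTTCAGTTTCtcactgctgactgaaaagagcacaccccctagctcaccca
H2-Aa, chr17:34287827-34287914, minus strand: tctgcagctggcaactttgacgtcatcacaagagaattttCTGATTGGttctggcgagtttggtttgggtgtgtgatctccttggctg
H2-Eb1, chr17:34305765-34305852, plus strand: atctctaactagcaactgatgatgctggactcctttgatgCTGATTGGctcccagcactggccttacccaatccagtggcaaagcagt
The paired GAAA was present in 9 of the 23 promoters (39.1%), against 3.99% of all 27025 genes with a promoter, 3.53% of the autosomal genes tested, 5.56% of female-high and 3.09% of male-high genes. CTGATTGG was present in 6 of the 23 (26.1%), against 4.70% of all genes, 6.44% of the autosomal genes tested, 6.53% of female-high and 5.01% of male-high genes. These are descriptions of letters in a window, since the list was chosen for its biology.

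Fat synthesis genes were high in some treated females only. Of 22, 11 were higher in females and none in males (50%, against 13.9% female-high of all genes, median log2FC -1.79, vehicle -0.25). Their summed level was 27084, 3742, 30161, 2007 and 23096 CPM in the females, against 2343 to 5509 (median 3908) in the treated males and 1667 to 5708 in all vehicle-treated mice. F2, F6 and F10 were thus far above every other mouse, while F4 was within the male range and F8 below it. Fads1, a fatty acid desaturase, had 54.3, 15.5, 77.2, 9.33 and 47.5 CPM in females and 6.56 to 19.9 (median 9.68) in males (-1.83 ± 0.40 (SE), adjusted p = 0.00143). The Fads1 call was lost in the treated mice alone, with the adipocyte score and with a block on the mouse numbers (adjusted p up to 0.0912). Acaca (acetyl-CoA carboxylase, which makes malonyl-CoA) had 539.6, 24.8, 635, 20.5 and 408 and 22.7 to 93.1 (median 45.04) CPM (-2.68 ± 0.71 (SE), adjusted p = 0.00572). Elovl6, which elongates palmitate, had 231, 4.57, 226, 4.86 and 236 and 3.98 to 25.7 (median 12.8) CPM (-3.28 ± 0.89 (SE), adjusted p = 0.0067). Fatty acid synthase, Fasn (3466, 53.9, 4319, 49.2 and 2412 and 56.4 to 453 (median 193) CPM), and the desaturase Scd1 (16469, 1767, 17923, 264 and 15170 and 361 to 2418 (median 1389.7) CPM) had some of the largest differences in mean, but with this spread among females did not pass (-3.25 ± 1.002 (SE), adjusted p = 0.0142 and -2.81 ± 0.84 (SE), adjusted p = 0.0118). The count of 11 fell to 2 without F6, 3 without F10, 2 without F10 and M8, and 0 with the adipocyte score as a covariate (6 at an unadjusted p under 0.05, edgeR), and was 15 without F8 and 16 without F4.

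Adipocyte markers had the most negative median of any list (-2.48, vehicle -0.43), with 5 of 14 called (Adrb3, Fabp4, Lipe, Lpl and Pparg). These 5, all female-high, are 35.7% of the markers, against 13.9% female-high of all genes. The sum was 7554, 6728, 13507, 1412 and 6872 CPM in the females and 1142 to 2110 (median 1805) in treated males, and it ran from 1033 to 9286 CPM in vehicle-treated mice. F6 was thus above all vehicle-treated mice, and F8 within the range of the treated males. Fabp4, the fatty acid carrier of adipocytes, had 1551, 539, 2746, 233 and 1461 and 174 to 489.6 (median 236) CPM (-2.22 ± 0.49 (SE), adjusted p = 0.00153), Pparg, the regulator of adipocyte identity, 34.9, 10.8, 59.95, 4.32 and 36.997 and 4.14 to 9.33 (median 6.35) CPM (-2.20 ± 0.53 (SE), adjusted p = 0.0028), and Adipoq, the adipocyte hormone adiponectin, 365, 126, 625, 5.94 and 367 and 13.3 to 68.5 (median 35.7) CPM (-2.93 ± 0.90 (SE), adjusted p = 0.0143). The count of adipocyte markers was 1 without F6, 1 without F10 and M8, and 11 without F8. Cav1 and Acsl1, which fat cells also express, were among the 4 most abundant female-high genes without overlap. Cav1 (caveolin-1, which coats caveolae) had 336, 200.4, 579.6, 174 and 397 and 123 to 173 (median 157) CPM (-1.15 ± 0.22 (SE), adjusted p = 0.000576). Acsl1, which activates fatty acids, had 618, 586, 1012, 496 and 856 and 275 to 450.1 (median 348) CPM (-0.999 ± 0.24 (SE), adjusted p = 0.00273), and its call was lost when F6 or F10 was left out (adjusted p up to 0.0152). With the adipocyte score as a covariate in the model, 889 autosomal genes differed between treated males and females (475 male-high, 414 female-high), so the female-high count fell more than the male-high count. The score itself differs between the sexes, so that the covariate also takes up part of any sex difference that runs along with it.

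**Figure D3:**
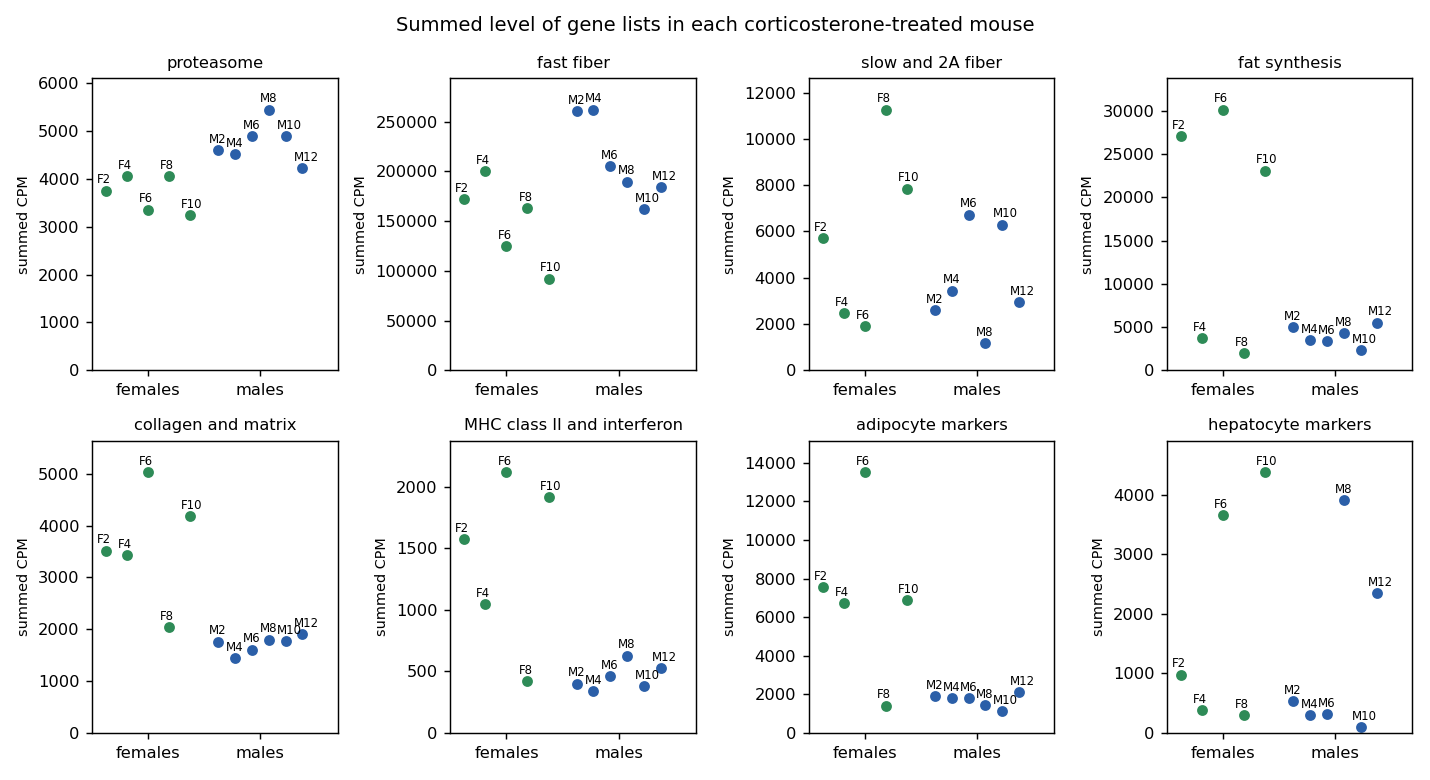
Summed CPM of 8 gene lists in each corticosterone-treated mouse, with females in green and males in blue, each axis starting at 0. The proteasome sum separates the sexes, the fat synthesis sum is at least 23096 CPM in F2, F6 and F10 and at most 5509 in all other treated mice, and the hepatocyte sum is highest in F6, F10, M8 and M12.

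Markers of other cells were also higher in treated females. Of 15 macrophage markers 10 were called (66.7%, against 13.9% female-high of all genes, median log2FC -1.25, sums 322, 307, 467, 187 and 588 CPM in females and 143 to 212 (median 175) in males), among them Mrc1, a scavenger receptor (18.6, 21.2, 26.05, 11.5 and 29.6 and 6.95 to 11.01 (median 10.2) CPM, -1.14 ± 0.23 (SE), adjusted p = 0.000822). Of 11 Schwann cell markers 8 were called (72.7%, against 13.9% female-high of all genes, median -1.54, vehicle -0.84), with Pmp22, a myelin protein, at 80.9, 39.4, 81.8, 31.1 and 99.5 and 19.8 to 30.7 (median 25.3) CPM (-1.40 ± 0.26 (SE), adjusted p = 0.000485). Of 12 endothelial markers Eng and Vwf were called (16.7%, against 23.4% of all genes in either direction and 13.9% female-high). Of lymphocyte and neutrophil markers 1 and 2 genes were abundant enough to test, and Ptprc, the pan-leukocyte phosphatase CD45, was higher in females (-1.68 ± 0.36 (SE), adjusted p = 0.00127). None of 24 hepatocyte and 5 erythrocyte markers was called by edgeR (2 and 0 at an unadjusted p under 0.05). DESeq2 called 1 and 0, and limma-voom none. Without F10 the count of macrophage markers was 2 and that of Schwann cell markers 2, without F10 and M8 they were 2 and 1, and without F8 13 and 10. With the adipocyte score as a covariate both were 0 (7 and 9 at an unadjusted p under 0.05, edgeR). What part these cells had in the other female-high genes was not tested.

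Ctsb and Psap, whose proteins act in lysosomes, were the other two of the 4 most abundant female-high genes without overlap. Ctsb, the protease cathepsin B, had 836, 606, 975, 569 and 892 CPM in females and 348 to 503 (median 430.4) in males (-0.84 ± 0.12 (SE), adjusted p = 8.63e-05), and Psap (prosaposin, an activator of lysosomal lipid hydrolases) 1213, 1262, 1196, 1096 and 1061 and 855 to 1046 (median 961) CPM (-0.29 ± 0.08 (SE), adjusted p = 0.00738). The Psap difference was small, and its call was lost in 16 of 35 alternatives (adjusted p up to 0.0243 with a mouse left out).

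Of 34 chaperone and unfolded protein response genes, 7 were higher in females and 1 in males, 23.5% in all as against 23.4% of all genes. The 7 were Asns, Dnaja1, Hsp90aa1, Hspa8, Hspd1, Pdia4 and Pdia6. Of the 34, 31 had a log2FC below 0, and the median was -0.50. The female-high count was 17 without F4, 5 without F10 and 4 without F10 and M8. Pdia6, a disulfide isomerase of the endoplasmic reticulum, had 92.1, 57.5, 103, 77.04 and 100.4 and 42.5 to 60.03 (median 46.4) CPM (-0.83 ± 0.13 (SE), adjusted p = 0.000111). Atf4, the transcription factor of the integrated stress response, was the 1 list member higher in males (0.58 ± 0.13 (SE), adjusted p = 0.00143). Among 29 antioxidant and metallothionein genes, 20.7% were called, against 23.4% of all genes, and the directions were mixed. Gsta4, which conjugates lipid aldehydes to glutathione, was higher in females (9.39, 6.2, 9.03, 8.99 and 10.4 and 3.04 to 5.19 (median 3.73) CPM, -1.13 ± 0.13 (SE), adjusted p = 1.55e-05), as were Cat and Sod3, and the zinc importer Slc39a14 was higher in males (19.8, 15.8, 21.9, 18.9 and 16.7 and 19.04 to 66.4 (median 36.7) CPM, 1.11 ± 0.22 (SE), adjusted p = 0.000675), as were Gstp1 and Keap1.

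Genes of energy metabolism gave few calls. None of 22 glycolysis genes, 1 of 74 nuclear-encoded respiratory chain subunits (Cox8a, higher in females, -1.18 ± 0.29 (SE), adjusted p = 0.00295) and 1 of 77 mitochondrial ribosomal proteins (Mrps6, higher in females, -0.76 ± 0.16 (SE), adjusted p = 0.00127) passed, with median log2FC of 0.10, -0.09 and 0.01. Of the glycolysis genes, 3 higher and 2 lower in males had an unadjusted p under 0.05 by edgeR, DESeq2 called 2 and 1, and limma-voom called none. Of 29 genes of fatty acid uptake and oxidation, 3 were higher in females (10.3%, against 13.9% female-high of all genes). They were Acsl1, Cd36 and Lpl, none of which was called without F6 or without F10. These 3 act in uptake, lipolysis of circulating fat and activation of fatty acids rather than in mitochondrial oxidation. The Cox8a call was lost when F6 or F10 was left out (adjusted p up to 0.018).

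**Figure D4:**
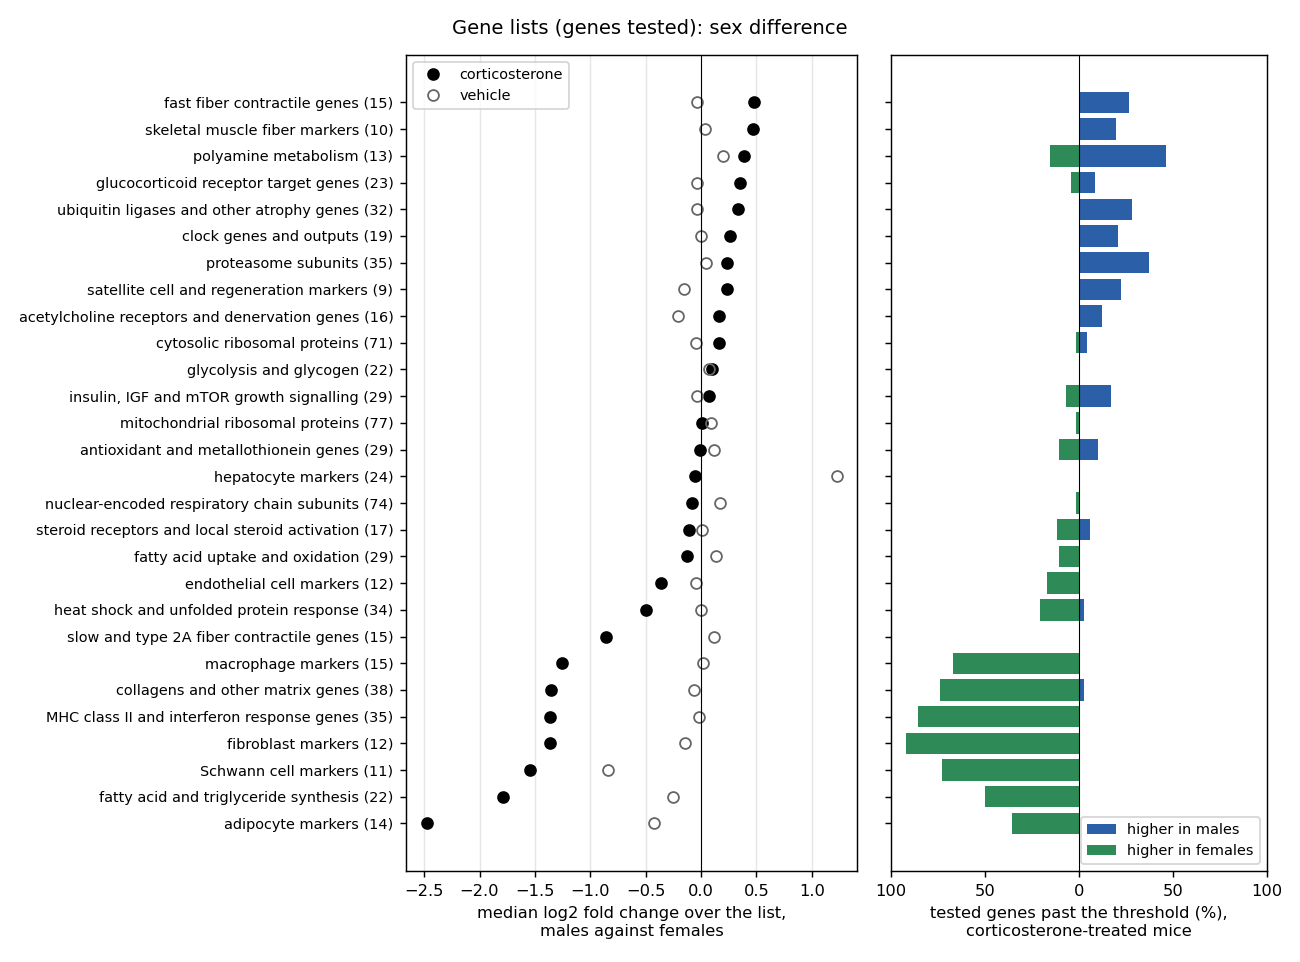
For each gene list with at least 9 genes tested (number in brackets), the left panel gives the median log2FC of males against females with corticosterone (filled) and vehicle (open), and the right panel the percent of tested genes past the threshold with corticosterone. Fibroblast markers (91.7%) and MHC class II and interferon response genes (85.7%) had the highest percent higher in females, and the hepatocyte markers the largest vehicle median (1.23).

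Without corticosterone the sexes differed in few autosomal genes. Between vehicle-treated males and females 108 genes passed (0.856%), 85 higher in males and 23 in females. Both comparisons called 52 genes, which is 1.77% of the calls with corticosterone and 48.1% of those with vehicle, and the comparisons share no mouse. Of the 52, 45 were male-high in both, 4 female-high in both, and 3 changed direction (Cbr2, Arid5a and Sesn1). Of the 2946 genes called with corticosterone, 72.5% had the same sign with vehicle, against 53.6% of the genes not called.

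The interaction of sex and treatment, which tests whether the sex difference itself changed, passed in 90 autosomal genes (0.714%), 81 of which were also called between treated males and females (42 male-high, 39 female-high). The count depended on single mice, from 1 without M3 to 864 without F8, and was 4 without F10 and M8.

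**Figure D5:**
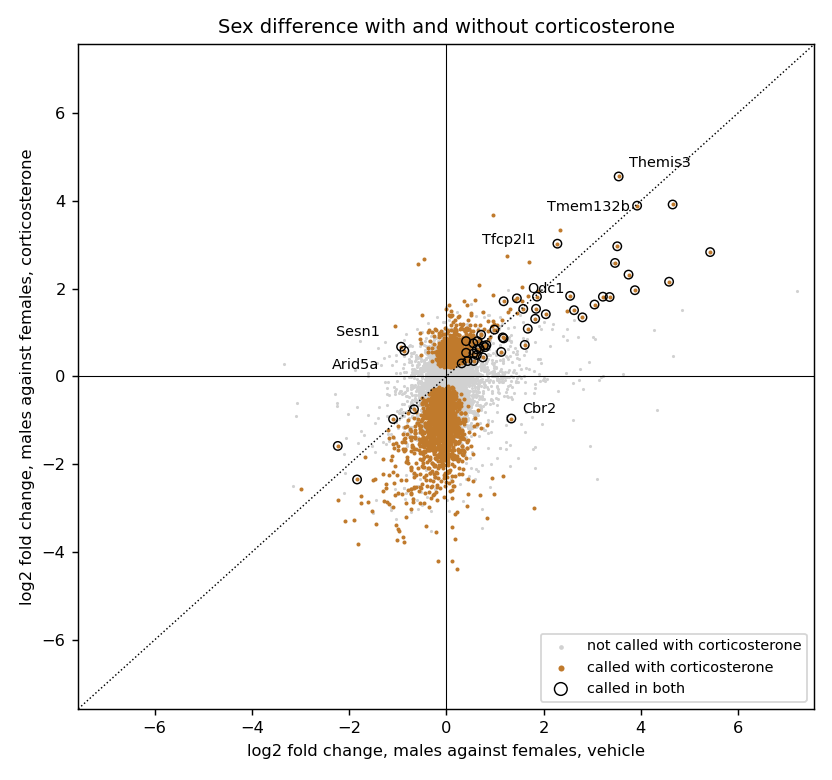
Log2FC of males against females with vehicle (horizontal) and with corticosterone (vertical) for each autosomal gene. Genes called with corticosterone are brown, the 52 called with both are ringed, and the dotted line marks equal differences. Most female-high genes lie near 0 with vehicle, and Themis3, Tmem132b, Tfcp2l1 and Odc1 lie near the line.

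The genes with the smallest interaction p that were also called with corticosterone were Arid5a, Cbr2, Myo18b, Cd59b and Sesn1. Myo18b (ENSMUSG00000072720, chromosome 5, 112688876 to 112896362, minus strand), an unconventional myosin needed for sarcomere assembly, had 534, 506, 451, 549 and 321 CPM in treated females and 963 to 1428 (median 1217) in treated males (1.37 ± 0.14 (SE), adjusted p = 3.26e-06), against no detectable difference with vehicle (0.08 ± 0.13 (SE), adjusted p = 0.881, interaction 1.30 ± 0.20 (SE), adjusted p = 0.00385). Cd59b (ENSMUSG00000068686, chromosome 2, 104069849 to 104091187, plus strand), an inhibitor of complement, was lower in treated males at 5.35, 5.58, 4.8, 5.06 and 6.3 and 1.14 to 3.09 (median 2.37) CPM (-1.25 ± 0.18 (SE), adjusted p = 5.75e-05). With vehicle the difference was 0.32 ± 0.16 (SE), adjusted p = 0.417 (interaction -1.57 ± 0.24 (SE), adjusted p = 0.00385). Cd59b has a close copy, Cd59a, with which reads could be shared. Sesn1 was lower in males than in females with vehicle (-0.93 ± 0.17 (SE), adjusted p = 0.00255) and higher with corticosterone (interaction 1.61 ± 0.25 (SE), adjusted p = 0.00385), having changed by 1.64 ± 0.17 (SE), adjusted p = 3.9e-07 in males and 0.03 ± 0.18 (SE), adjusted p = 0.924 in females. Arid5a, an RNA-binding protein, turned in the same direction (-0.87 ± 0.13 (SE), adjusted p = 0.000311 with vehicle, 0.58 ± 0.14 (SE), adjusted p = 0.00223 with corticosterone). Cbr2, a carbonyl reductase, turned the other way (1.34 ± 0.23 (SE), adjusted p = 0.00175 with vehicle, -0.96 ± 0.24 (SE), adjusted p = 0.00416 with corticosterone), at 24.7, 24.5, 35.4, 12.2 and 31.4 and 9.84 to 20.7 (median 11.7) CPM in treated females and males. The Cbr2 call with corticosterone was lost when F6, F10, M2, M4 or M12 was left out (adjusted p up to 0.0208). Foxo3 was lower in males with vehicle (-0.58 ± 0.12 (SE), adjusted p = 0.00919) and its interaction passed (1.02 ± 0.18 (SE), adjusted p = 0.00607).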

How the data were processed

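Quadriceps mRNA of 23 mice was sequenced as stranded paired-end libraries. The authors aligned reads to mm10 with STAR 2.7.3a, counted them per gene with HTSeq 0.12.4 (submitters' processing notes) and deposited raw counts per gene and mouse, without normalization. Summary entries (10.7% to 15.3% of read pairs in treated mice) were left out. Names and positions are from GENCODE M21 on GRCm38, and no other columns were used. A gene was tested if its normalized count exceeded 20 in 4 or more mice of any group, which kept 13049 genes, 12613 of them autosomal.

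Counts were tested with edgeR 4.0.16 in R 4.3.3 by the quasi-likelihood test, with TMM normalization and 1 mean for each of the 4 groups. P-values were adjusted by Benjamini-Hochberg over all genes tested (threshold 0.01). The study's methods name DESeq2 (1.42.0 here), which served as an alternative, as did limma-voom 3.58.1, other filters and scalings, a covariate and mice left out. CPM uses TMM-scaled library sizes, in which 3 counts are worth at most 0.165 CPM. The script was tested on simulated data. Replicates differed by more than sampling noise (lowest chi-square per degree of freedom 15.2), and p-values rest on the spread between mice within groups. In the main fit this spread was estimated for each gene over all 4 groups, vehicle-treated mice included, although the treated females varied more than the treated males.

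The mouse groups, gene lists and tests were chosen with earlier results of these data known, and 31 lists were used. Named genes were the 8 largest and 4 most abundant non-overlapping called genes in each direction (no Gm or Rik models), the 5 with the smallest interaction p, genes the study's results name, and for each list the called genes with the smallest p. Other list members named with values were chosen after their values were seen. A few list members are not reported here. Males and females with the same number had correlations of deviations from -0.411 to 0.303 in treated mice and from 0.119 to 0.503 in vehicle-treated mice. Vehicle-treated mice with different numbers ran from -0.518 (F5 and M7) to 0.457 (F5 and M3). The correlations therefore do not settle whether the numbers pair the vehicle-treated mice, and the main fit used no pairing.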

Additional observations from a re-analysis of the deposited data

Results flagged for a closer look

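Of 152 groups of treated mice examined over the named genes, 4 held a mouse far from the others, where chance gives about 1 in 20. F10 had 13.998 CPM of Inhba, against 0.721 to 1.82 in the other treated females. M2 had 0.430 CPM of Pi15, F4 10.4 CPM of Slc30a2 and F10 69.8 CPM of Tsc2.

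In 8 named genes the difference between the sexes itself differed between treated and vehicle-treated mice (interaction, edgeR's quasi-likelihood test, adjusted p under 0.01). Arid5a, Cbr2, Myo18b, Cd59b and Sesn1 had been named for their small interaction p, so their place among the 8 was fixed by that choice. On the log2 scale the change in the male-minus-female difference was 1.45 for Arid5a, 1.02 for Foxo3, 1.298 for Myo18b and 1.61 for Sesn1, and -2.30 for Cbr2, -1.57 for Cd59b, -2.61 for Col3a1 and -1.15 for Gsta4.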

How the results depend on the processing

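Treated males against females gave 2946 calls in all, 967 beyond a log2FC of 1, 4923 at an adjusted p under 0.05, 889 with the adipocyte score as a covariate, 1333 without F10 and M8, 1301 in the 11 treated mice alone, and 1804 to 3623 with each mouse left out in turn. Vehicle-treated males against females gave 108, 67 beyond a log2FC of 1, 287 at 0.05, 263 by DESeq2, 168 by limma-voom, and 82 to 125 with a mouse left out. The interaction gave 90, 40 beyond 1, 1600 at 0.05, 874 by DESeq2, 668 by limma-voom, 10 without a gene filter, 165 with autosomal genes alone, 2 with the adipocyte score, 4 without F10 and M8, and 1 to 864 with a mouse left out. Genes called in both treatments numbered 52, 26 beyond 1, 155 at 0.05, 122 by DESeq2, and 44 to 60 with a mouse left out. With a replicate block on the mouse numbers the counts were 2188 (1121 male-high, 1067 female-high, so 51.2% male-high), 121, 95 and 58. Of 62 called named genes, 49 remained called whichever mouse was left out and 21 under every alternative. With the adipocyte score as a covariate 30 of them lost the call, and in the treated mice alone 20 did. Usp14, not called in any setting, turned sign at 0.011 with the median of ratios, 0.0113 with DESeq2, 0.00019 with filterByExpr, 0.0401 without a filter, 0.0134 with autosomal genes alone and 0.0066 with the block, and ran from -0.046 to 0.0135 with a mouse left out. The causes were not tested. Depth limits genes under about 0.165 CPM in a sex.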

Other observations

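Of 9 satellite cell and regeneration markers, Cdh15 (M-cadherin) and Des were higher in treated males (22.2% called, against 23.4% of all genes in either direction and 9.48% male-high). Cdh15 had 21.1, 23.2, 17.02, 26.6 and 14.4 CPM in the treated females and 28.6 to 44.3 (median 42.6) in the males (0.95 ± 0.15 (SE), adjusted p = 0.000184, interaction 1.11 ± 0.21 (SE), adjusted p = 0.00805). Of 16 acetylcholine receptor and denervation genes, Chrnb1 and Musk, the kinase that clusters acetylcholine receptors, were higher in treated males (12.5% called, against 23.4% of all genes in either direction and 9.48% male-high). The count here was 4 without F8 and 1 in most other fits with a mouse left out. Musk had 23.5, 15.2, 19.2, 16.9 and 10.1 and 24.8 to 49.4 (median 39.8) CPM (1.19 ± 0.25 (SE), adjusted p = 0.00121).

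Called long noncoding RNA genes were more often male-high, and called protein-coding genes more often female-high. Of 635 long noncoding RNA genes tested, 83 were called (13.1%), 57 male-high and 26 female-high, against 2849 of 11703 protein-coding genes (24.3%), 1136 male-high and 1713 female-high. The male-high share of the noncoding genes was near that of all autosomal genes (9.48%). Their female-high share was below that of all autosomal genes (13.9%). Calls were spread over the autosomes, from 19.5% of tested genes on chromosome 13 to 26.8% on chromosome 10. These shares are descriptions, and no test of the difference was made.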
